A study of Homo sapiens with 12 samples.

Results

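The genes described here are 46 genes of fatty acid and lipid droplet metabolism, from fatty acid synthesis through activation, oxidation and storage to lipolysis and the PPAR receptors. They were taken by gene name from the deposited table of 58735 genes, and all 46 were found. Of these, 45 passed edgeR's filter on low counts, among 16046 genes that passed. The exception was ELOVL6, a fatty acid elongase, with 0 to 4 counts per library.

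RNA was sequenced from TAMs obtained by treating THP-1 cells, a human monocytic leukaemia line, with PMA, after coculture with AsPC-1 pancreatic cancer cells. The 4 groups held 3 libraries each. They were control (NC, empty vector in AsPC-1 cells), OE-MMP28 (OE, MMP28 overexpressed in AsPC-1 cells), and OE-MMP28 with a neutralizing antibody to IL-8 (anti-IL-8) or to VEGFA (anti-VEGFA). No group is labelled as having received a control antibody, so the effect of adding any antibody and that of blocking IL-8 or VEGFA cannot be told apart, and since nothing in the labels says that the 3 libraries of a group came from separate cultures, p-values measure only the spread between these libraries.

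Lipid droplets store fatty acids as triglycerides under a coat of perilipins. Triglycerides are built by DGAT enzymes from fatty acids that were made in the cell, taken up or released by lipases, and are broken down by a sequence of lipases that begins with ATGL (gene PNPLA2). The freed fatty acids are activated by acyl-CoA synthetases, carried into mitochondria by the carnitine shuttle and shortened by beta-oxidation. In macrophages, lipid droplets and PPARγ activity are long-studied features of lipid-loaded and alternatively activated cells.

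Libraries held 15852346 to 18701195 counts, and 3 counts corresponded to 0.160 to 0.194 CPM (counts scaled to a common library size, with TMM factors), which covers counting error only. MMP28 had 0 counts in all 12 TAM libraries, so the overexpression in the cocultured cells could not be checked from these data. Of 9 macrophage markers, 8 passed the filter, while CD68 had at most 5 counts in a library. Their summed level was 1998 to 2266 CPM in control, 2145 to 3466 in OE-MMP28, 2864 to 3563 with anti-IL-8 and 2760 to 2922 with anti-VEGFA. Of 8 epithelial markers, 7 had more than 3 counts in at least 1 library and 2 passed the filter, while EPCAM had 0 counts in all libraries. The summed epithelial level was 4.50 to 5.38 CPM in control, 2.31 to 3.18 in OE-MMP28, 3.43 to 4.82 with anti-IL-8 and 4.10 to 4.51 with anti-VEGFA. The cause of these marker differences was not tested. The adipocyte markers summed to at most 0.499 CPM, and ADIPOQ had 0 counts in all libraries. Mitochondrial transcripts took 6.92% to 17.8% of the counts, most in anti-VEGFA replicate 2. The OE-MMP28 libraries were spread in GC composition, taken as the Spearman correlation across genes between level relative to the mean and GC content. It was -0.387, -0.72 and 0.064 in OE replicates 1, 2 and 3, and replicate 2 was the lowest of the 12 libraries. On the first principal component of the log CPM (30.6% of the variance), OE replicate 3 lay apart from the other OE-MMP28 libraries. It lay at 22.17, within the range of the antibody libraries (4.09 to 33.19), against -7.79 and -26.93 for OE replicates 1 and 2.

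Per gene length, the module was dominated by a few genes (FPKM, the authors' length-normalised values, mean over the 12 libraries). LPL, the lipoprotein lipase that releases fatty acids from lipoproteins, had the highest level at 547 FPKM. G0S2, an inhibitor of ATGL, followed at 390 FPKM, and SCD, the stearoyl-CoA desaturase, at 155 FPKM. PPARD stood at 101 FPKM, above PPARG at 13.5 and PPARA at 0.712 FPKM. The main droplet coat genes were PLIN2 at 66.7 and PLIN3 at 53.8 FPKM. At the low end, ACACB, the mitochondrial acetyl-CoA carboxylase, had 0.114 FPKM from 18 to 45 counts per library, and LIPE, the hormone-sensitive lipase, had 0.0919 FPKM from 3 to 14 counts. The control libraries of LPL lay above all other libraries in FPKM and those of G0S2 below them.

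**Figure D1:**
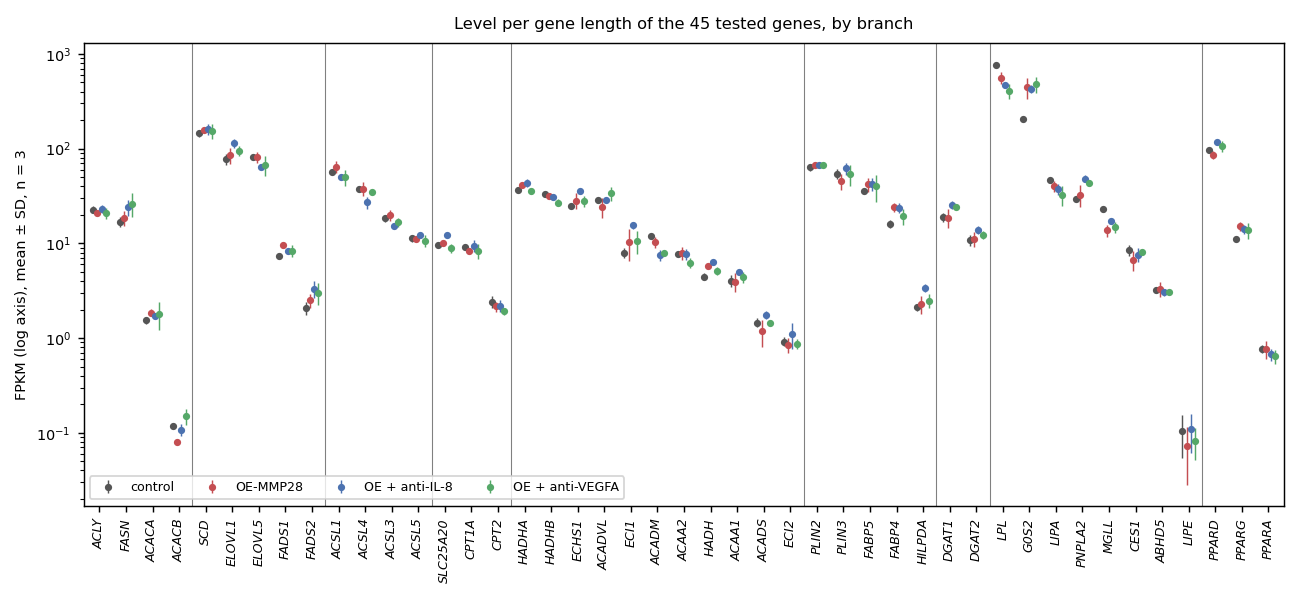
Level of the 45 tested genes as the authors' FPKM on a log axis, as mean ± SD of the 3 libraries of each group, with genes ordered by level within each branch and branches separated by grey lines. LPL and G0S2 stand highest, and ACACB and LIPE lie near 0.1 FPKM in every group.

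In OE-MMP28 TAMs, 2 of the 45 tested genes differed from control at an adjusted p under 0.05, against 3.16% of all genes tested (0.523% higher, 2.64% lower), and both belong to the lipases and their regulators. At an unadjusted p under 0.05 there were 7 (5 higher, 2 lower), against 14.5% of all genes (5.93% higher, 8.61% lower). G0S2 rose and MGLL, the monoacylglycerol lipase that completes triglyceride breakdown, fell (edgeR quasi-likelihood test, p adjusted by Benjamini-Hochberg, as for every adjusted p given below). The median log2 fold change was 0.04 over the 45 genes and 0.02 over all genes. The libraries of the groups did not overlap for 13 of the 45 genes (7 higher, 6 lower in OE-MMP28), against 21.3% of all genes (9.63% higher, 11.6% lower). Without anti-VEGFA replicate 2, which shares in the estimate of the spread, 4 genes were called, FABP4 and PPARG in addition, against 3.89% of all genes. In bulk RNA, fewer cells carrying a transcript and less of it per cell cannot be told apart.

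G0S2 (chromosome 1, GRCh38, chr1:209675420-209676388, plus strand) had 179, 187 and 176 CPM in the control libraries and 431, 277 and 464 CPM in the OE-MMP28 libraries, in replicate order. Every OE-MMP28 library was above every control, with OE replicate 2 the lowest of its group. The change was 2.16-fold (log2 fold change 1.11, SE 0.17, adjusted p = 0.000612). With anti-IL-8 the libraries had 356, 416 and 346 CPM, and with anti-VEGFA 339, 492 and 431 CPM. Both antibody groups also lay wholly above control, at 1.05 on the log2 scale (SE 0.17, adjusted p = 0.000739) and 1.22 on the log2 scale (SE 0.17, adjusted p = 0.000201). They overlapped with OE-MMP28, from which they did not differ at the threshold (log2 fold change -0.07, SE 0.17, adjusted p = 0.817, and log2 fold change 0.11, SE 0.17, adjusted p = 0.77). The 3 comparisons with control share the control libraries. Each call of G0S2 against control held when each of the 12 libraries was left out in turn.

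MGLL (chromosome 3, chr3:127689062-128052190, minus strand) had 293, 270.0 and 257 CPM in control and 184, 139.6 and 169 CPM in OE-MMP28. All OE-MMP28 libraries lay below all controls. The level was 0.601 of control (log2 fold change -0.74, SE 0.13, adjusted p = 0.00252). With anti-IL-8 it was 201, 201 and 209 CPM, above the 3 OE-MMP28 libraries and below the 3 controls. With anti-VEGFA it was 207, 168 and 159.9 CPM, overlapping with OE-MMP28. Against OE-MMP28 neither difference was called (log2 fold change 0.31, adjusted p = 0.131 with anti-IL-8, and 0.12, adjusted p = 0.651 with anti-VEGFA). With GC and length offsets the anti-IL-8 difference from OE-MMP28 was 0.06 (adjusted p = 0.883). Against control the fall was called with anti-IL-8 (log2 fold change -0.42, SE 0.13, adjusted p = 0.032) and with anti-VEGFA (log2 fold change -0.62, SE 0.13, adjusted p = 0.0069). The anti-IL-8 call was lost when any of the 6 libraries of that comparison was left out, with adjusted p up to 0.135.

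LPL, the most abundant of the genes, had 3301, 3289 and 3505 CPM in control. In OE-MMP28 it had 2496, 2823 and 2139 CPM, all below control, but the difference missed the threshold (log2 fold change -0.44, SE 0.15, adjusted p = 0.152). With anti-IL-8 the libraries had 2084, 1934 and 2122 CPM and with anti-VEGFA 2162, 1536 and 1684 CPM. Both antibody groups were wholly below control, and the anti-IL-8 libraries were also below all 3 OE-MMP28 libraries. The fall against control was -0.72 on the log2 scale (SE 0.15) with anti-IL-8 (adjusted p = 0.00436) and -0.91 on the log2 scale (SE 0.15) with anti-VEGFA (adjusted p = 0.000893), which left 0.533 of the control level. Both calls held when each of the 12 libraries was left out in turn. Against OE-MMP28 the log2 fold change was -0.47 with anti-VEGFA (adjusted p = 0.129) and -0.28 with anti-IL-8 (adjusted p = 0.217).

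PNPLA2, which encodes ATGL, the lipase that G0S2 inhibits (chromosome 11, chr11:818902-825573, plus strand), had 112, 111 and 116 CPM in control and 128, 93.1 and 159.7 CPM in OE-MMP28. The OE-MMP28 libraries lay on both sides of the controls (log2 fold change 0.17, SE 0.15, adjusted p = 0.68). With anti-IL-8 they had 179, 178 and 201 CPM, and with anti-VEGFA 181, 164 and 158 CPM, all above control. The rise against control was 0.72 on the log2 scale (SE 0.15) with anti-IL-8 (adjusted p = 0.00491), a call that held when each of the 12 libraries was left out, and 0.57 (SE 0.15) with anti-VEGFA (adjusted p = 0.0242). The anti-VEGFA call was lost on leaving out any 1 of the 3 controls or anti-VEGFA replicate 1 (adjusted p up to 0.098), and with GC and length offsets (log2 fold change 0.25, adjusted p = 0.0908). With those offsets the anti-IL-8 difference kept its call but was smaller, at 0.32 (adjusted p = 0.03). An annotated gene on the opposite strand shares 10.4% of the exon bases of PNPLA2, and the strand setting of the counting is not given in the sources used here.

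The upstream sequences of G0S2 and PNPLA2 are shown because the pair encodes a lipase and its inhibitor and both were higher than control with either antibody. They are the 250 bases before the RefSeq transcription start (GRCh38.p14, chr1:209675162-209675411 and chr11:818664-818913, both plus strand), written 5′ to 3′, with motif matches in capitals.
G0S2: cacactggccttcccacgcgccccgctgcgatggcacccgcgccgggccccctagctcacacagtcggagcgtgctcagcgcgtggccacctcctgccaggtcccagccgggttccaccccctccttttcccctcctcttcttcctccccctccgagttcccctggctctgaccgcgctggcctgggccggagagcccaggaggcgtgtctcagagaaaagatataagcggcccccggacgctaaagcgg
PNPLA2: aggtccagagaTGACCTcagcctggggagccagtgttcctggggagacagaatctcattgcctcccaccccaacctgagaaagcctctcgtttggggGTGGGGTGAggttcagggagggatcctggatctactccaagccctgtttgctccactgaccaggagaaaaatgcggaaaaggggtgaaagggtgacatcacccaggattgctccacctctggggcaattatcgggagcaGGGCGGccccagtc
The letters searched on both strands were AGGTCA (a nuclear receptor half-site), GGGCGG (the GC box), TATAAA (bound by TBP), CACGTG (an E-box) and TCACCCCAC (core of a sterol regulatory element). PNPLA2 held AGGTCA and TCACCCCAC on the minus strand and GGGCGG on the plus strand, and G0S2 held none of these letters in this window. Over the 35116 RefSeq promoter windows of the same length, AGGTCA was found in 12.1%, GGGCGG in 42.6%, TATAAA in 10.7%, CACGTG in 6.34% and TCACCCCAC in 0.362%. Among the 36 genes of the module with a promoter entry, 30 held GGGCGG, 5 held AGGTCA and 2 held TCACCCCAC (ACSL1 and PNPLA2). A gene was counted here if any of its entries matched, while the shares above are per window, so the counts and shares are not the same measure. A match is a run of letters and was not tested as a binding site.

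**Figure D2:**
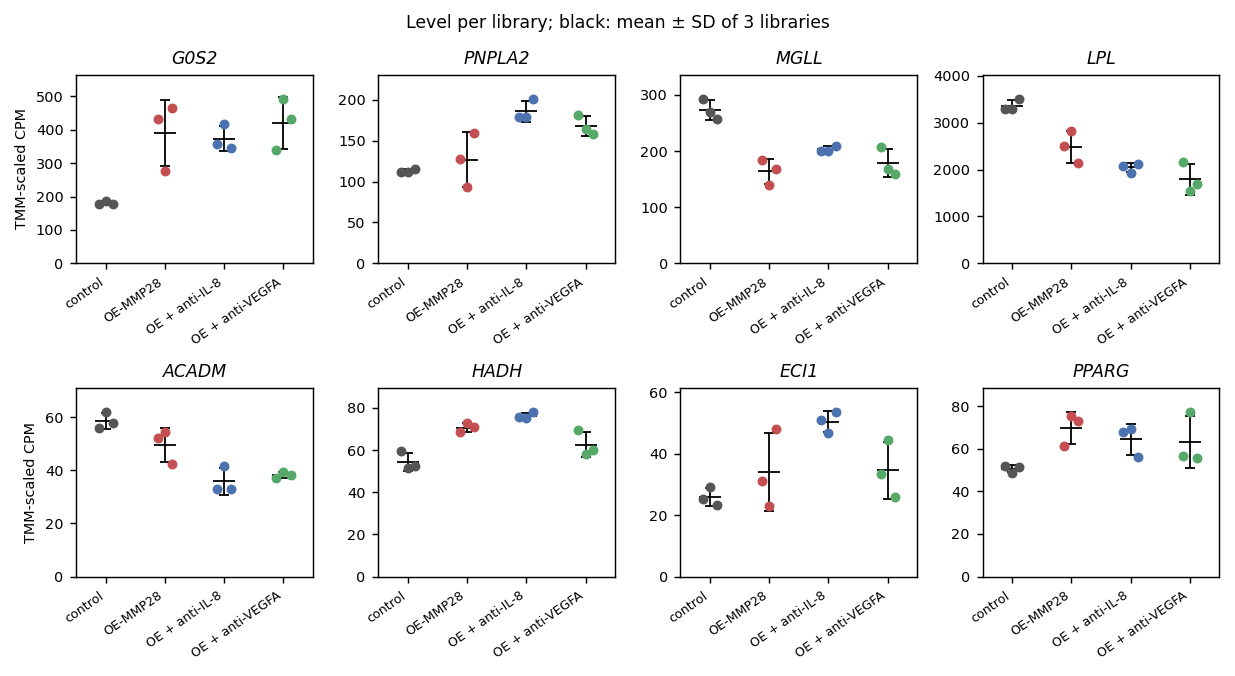
TMM-scaled CPM of 8 genes in each library (coloured points), with the mean ± SD of the 3 libraries of a group in black and the axes starting at 0. For G0S2 all libraries with MMP28 overexpression lie above the controls, for MGLL and LPL all lie below them, and for PNPLA2 and ECI1 the OE-MMP28 libraries spread more widely than the controls.

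Among the remaining lipase genes, 1 was called. LIPA, the lysosomal acid lipase, had 236, 231 and 234 CPM in control and 195, 117 and 171 CPM with anti-VEGFA, a fall of -0.54 on the log2 scale (SE 0.16, adjusted p = 0.043). The groups did not overlap, but the call was lost on leaving out any 1 of 8 libraries (each control, OE replicate 1, anti-IL-8 replicates 1 and 3, anti-VEGFA replicates 2 and 3; adjusted p up to 0.164) and with the offsets (log2 fold change -0.37, adjusted p = 0.126). LIPA shares 4.07% of its exon bases with genes on the opposite strand, among them IFIT2, which had a mean of 182 CPM in control and 10.5 CPM with anti-VEGFA. The part of those shared bases in the difference was not tested. ABHD5, the coactivator of ATGL, lay between 21.0 and 30.3 CPM over the 12 libraries, and CES1, a carboxylesterase, between 16.1 and 28.3 CPM. Neither of them passed the threshold in any of the 6 comparisons, nor did LIPE.

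Of the 8 tested lipases and their regulators, 2 were called in OE-MMP28, 4 for anti-IL-8 and 5 for anti-VEGFA, each against control, where 3.16%, 20.7% and 11.0% of all genes were. These calls were 1 higher and 1 lower, 2 higher and 2 lower, and 2 higher and 3 lower in these comparisons. The median log2 fold change of the branch was -0.28, -0.13 and -0.17.

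With anti-IL-8, 14 of the 45 genes differed from control (10 higher, 4 lower), or 31.1%, against 20.7% of all genes (9.77% higher, 10.9% lower). At an unadjusted p under 0.05 there were 22 (15 higher, 7 lower), against 35.9% of all genes (17.2% higher, 18.7% lower). The 10 that rose came from 5 of the 9 branches, and the 4 that fell were LPL, MGLL, ACADM and ACSL4. The median log2 fold change was 0.13 over the 45 genes and -0.02 over all genes. The libraries did not overlap for 27 genes (18 higher, 9 lower), against 47.8% of all genes (23.4% higher, 24.4% lower). The number of calls was 9, 5 and 7 without control replicate 1, 2 and 3, and 7 and 8 without anti-IL-8 replicate 1 and 3. The share of all genes called fell along with it, to between 7.94% and 11.1% in these 5 fits.

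With anti-VEGFA, 7 of the 45 genes differed from control (3 higher, 4 lower), or 15.6%, against 11.0% of all genes (5.60% higher, 5.37% lower). They were G0S2, PNPLA2 and FASN, which rose, and LPL, MGLL, ACADM and LIPA, which fell. At an unadjusted p under 0.05 there were 12 (6 higher, 6 lower), against 27.0% of all genes (14.3% higher, 12.6% lower). The median was -0.01 over the 45 genes and 0.00 over all genes, and the groups did not overlap for 14 genes (7 higher, 7 lower), against 34.3% of all genes (16.9% higher, 17.4% lower). The number of calls was 4 on leaving out any 1 of the 3 controls, when 4.02% to 5.80% of all genes were called.

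**Figure D3:**
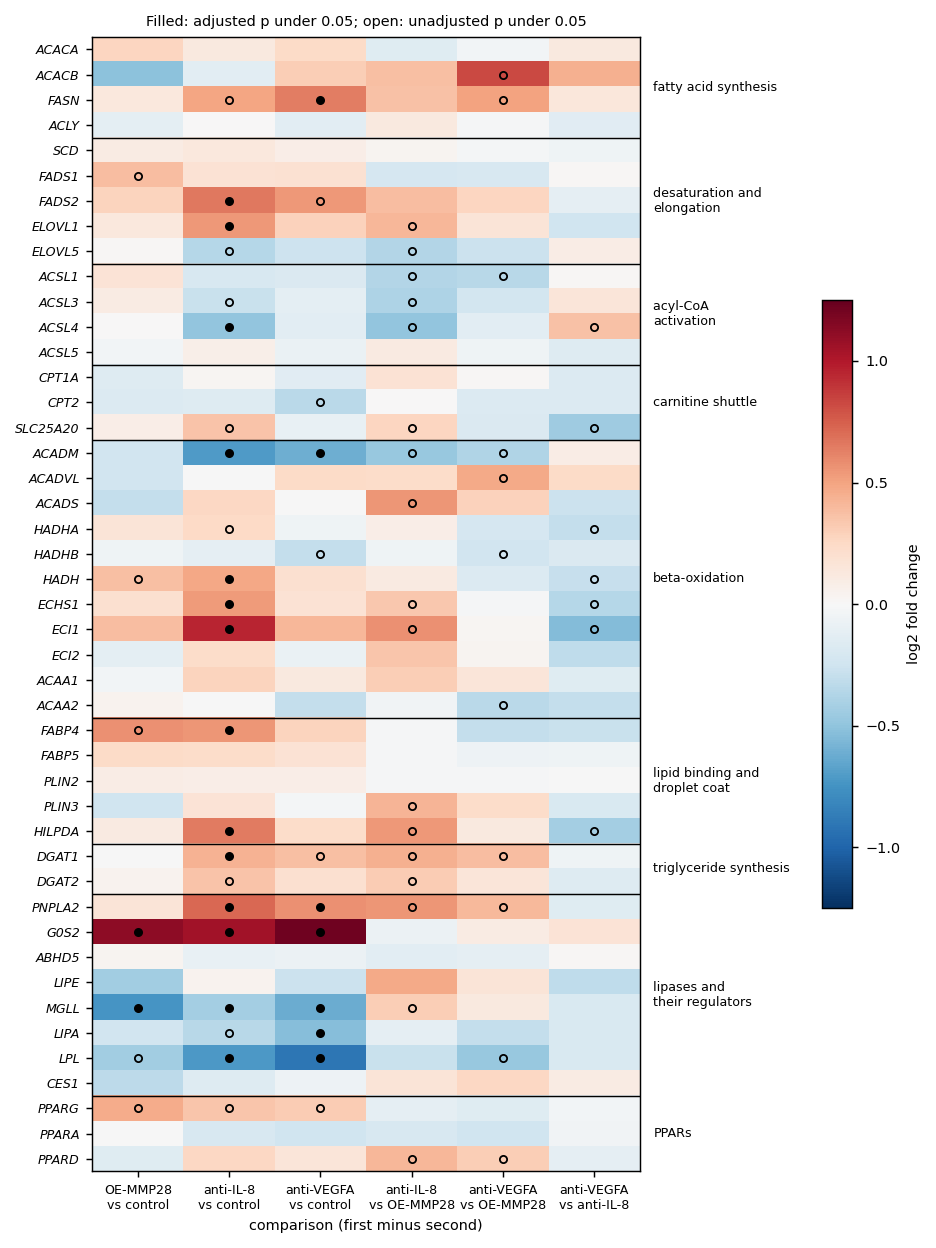
log2 fold change of the 45 tested genes (rows, by branch) in the 6 comparisons (columns, first group minus second), red for higher and blue for lower. Filled circles mark an adjusted p under 0.05 and open circles an unadjusted p under 0.05. G0S2 and MGLL carry filled circles in all 3 comparisons with control. No gene does in the 3 comparisons among the groups with MMP28 overexpression, where 0% to 0.343% of all genes were called.

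In beta-oxidation, enzymes of the same pathway were called in opposite directions. With anti-IL-8, 4 of 11 tested genes differed from control (3 higher, 1 lower), against 20.7% of all genes. With anti-VEGFA it was 1 of 11, which was lower, against 11.0% of all genes. In OE-MMP28 no gene passed, against 3.16% of all genes. There, 1 had an unadjusted p under 0.05 and 1 was called by DESeq2 (HADH), against 14.5% and 4.14% of all genes. ACADM, the medium-chain acyl-CoA dehydrogenase (chromosome 1, chr1:75724347-75787575, plus strand), had 56.0, 61.7 and 57.6 CPM in control and 52.0, 54.3 and 42.4 CPM in OE-MMP28. It had 33.0, 41.5 and 32.8 CPM with anti-IL-8 and 37.1, 39.4 and 38.2 CPM with anti-VEGFA. Every library with an antibody lay below every control and every OE-MMP28 library. Against control the fall was -0.71 on the log2 scale (SE 0.13, adjusted p = 0.00201) and -0.61 on the log2 scale (SE 0.13, adjusted p = 0.00685), and both calls held when each of the 12 libraries was left out. Against OE-MMP28 it was -0.47 (adjusted p = 0.0627) and -0.38 (adjusted p = 0.155) on the log2 scale.

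ECI1, the mitochondrial enoyl-CoA isomerase needed for unsaturated fatty acids (chromosome 16, chr16:2239395-2252300, minus strand), had 25.4, 29.2 and 23.2 CPM in control and 51.1, 46.8 and 53.5 CPM with anti-IL-8, with no overlap. This was a 1.94-fold rise (log2 fold change 0.95, SE 0.22, adjusted p = 0.00734), and with the offsets the log2 fold change was 0.59 (adjusted p = 0.0249). Its OE-MMP28 libraries were spread from below control to the anti-IL-8 range, at 31.1, 22.9 and 48.1 CPM. The anti-VEGFA libraries, at 33.3, 44.4 and 26.0 CPM, lay below the anti-IL-8 libraries, and replicate 3 fell within the control range. HADH, the short-chain hydroxyacyl-CoA dehydrogenase, had 59.4, 51.6 and 52.5 CPM in control, 68.4, 72.9 and 70.8 in OE-MMP28, 75.5, 75.3 and 77.9 under anti-IL-8 and 69.6, 58.2 and 60.1 under anti-VEGFA. The OE-MMP28 and anti-IL-8 libraries were all above control, and the lowest anti-VEGFA library was below the highest control. It rose with anti-IL-8 (log2 fold change 0.48, SE 0.12, adjusted p = 0.00897), a call lost without control replicate 2 (adjusted p = 0.055), and missed the threshold in OE-MMP28 (0.37, adjusted p = 0.0985). With the offsets HADH was called higher than control in OE-MMP28 (0.39, adjusted p = 0.0275), with anti-IL-8 (0.68, adjusted p = 0.000228) and with anti-VEGFA (0.33, adjusted p = 0.0408).

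ECHS1, the short-chain enoyl-CoA hydratase, had 40.3 ± 1.08 CPM in control (mean ± SD, n = 3) and rose to 58.4 ± 2.49 CPM under anti-IL-8 (a log2 fold change of 0.53, SE 0.14, adjusted p = 0.015). That call was lost without control replicate 2 or 3 or anti-IL-8 replicate 1 (adjusted p up to 0.0639) and with the offsets (log2 fold change 0.18, adjusted p = 0.215). HADHA, a subunit of the trifunctional protein and the most abundant of the branch at 39.3 FPKM, was not called in any comparison. Nor were its partner HADHB, the dehydrogenases ACADVL and ACADS, the isomerase ECI2 or the thiolases ACAA1 and ACAA2. ECI2 and ACAA1 share 29.8% and 21.2% of their exon bases with neighbouring genes, so their reads may be split.

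The 3 carnitine shuttle and 4 fatty acid activation genes gave 1 call, with anti-IL-8 against control, where 20.7% of all genes were called. ACSL4, the synthetase that prefers arachidonic acid (chromosome X, chrX:109624244-109733403, minus strand), had 239, 249.8 and 247 CPM in control and 149, 201 and 172 CPM with anti-IL-8, all lower. The fall was -0.50 on the log2 scale (SE 0.14, adjusted p = 0.0203), and it was lost on leaving out any 1 of the 3 controls or anti-IL-8 replicate 1 or 3 (adjusted p up to 0.151) and with the offsets (log2 fold change -0.18, adjusted p = 0.178). ACSL1, the most abundant synthetase, had means of 365 ± 15.5, 409 ± 57.3, 318 ± 22.0 and 321 ± 63.4 CPM in control, OE-MMP28, anti-IL-8 and anti-VEGFA. CPT1A, the rate-limiting step of entry into mitochondria, had 61.2 ± 2.39, 54.8 ± 3.97, 62.4 ± 9.00 and 55.5 ± 10.3 CPM in the same order. Neither CPT1A nor CPT2 was called, nor were ACSL3 and ACSL5. SLC25A20, the carnitine carrier, had 18.9, 18.7 and 19.7 CPM in control and 24.5, 24.3 and 24.7 CPM with anti-IL-8, without overlap, but missed the threshold (0.36, adjusted p = 0.0543).

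Of the 4 synthesis and 5 tested desaturation and elongation genes, 3 were called, 1 with anti-VEGFA and 2 with anti-IL-8, each against control. In these comparisons 11.0% and 20.7% of all genes were called. FASN, the fatty acid synthase, had 183, 149.7 and 149 CPM in control and 330.2, 193 and 226 CPM with anti-VEGFA, all above control and with replicate 1 far above the other two. It rose by 0.64 on the log2 scale (SE 0.19, adjusted p = 0.0374). Without anti-VEGFA replicate 1 the log2 fold change was 0.38 (adjusted p = 0.162), and the call was also lost on leaving out any 1 of the 3 controls or anti-VEGFA replicate 3, and with the offsets (log2 fold change 0.28, adjusted p = 0.183). FADS2, the delta-6 desaturase, rose with anti-IL-8 from 23.0 ± 3.39 to 36.5 ± 7.21 CPM (0.66, adjusted p = 0.0257), and ELOVL1, an elongase of very long chains, from 198 ± 26.6 to 287 ± 31.7 CPM (0.54, adjusted p = 0.0222). Both calls were lost without control replicate 2 or 3 or anti-IL-8 replicate 1 or 3 (adjusted p up to 0.114 for each) and with the offsets (log2 fold change 0.45 and 0.32, adjusted p = 0.0528 and 0.09). FADS2 overlaps FADS1 and FEN1 in 4.89% of its exon bases.

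SCD, the most abundant gene of these branches, lay between 659 and 944 CPM in the 12 libraries and was not called in any comparison. ACLY, ACACA and ACACB, which supply acetyl-CoA and malonyl-CoA, were not called either, nor was the elongase ELOVL5. FADS1, the delta-5 desaturase, had 79.7, 69.6 and 78.7 CPM in control and 107, 96.5 and 95.5 CPM in OE-MMP28, without overlap, but missed the threshold (0.39, adjusted p = 0.119).

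Of the 5 lipid binding and droplet coat genes, 2 were called, both higher with anti-IL-8 than in control. In that comparison 20.7% of all genes were called (9.77% higher). FABP4, a fatty acid binding protein of macrophages and adipocytes, had 20.6, 22.3 and 25.1 CPM in control, 32.4, 30.7 and 38.3 in OE-MMP28, 36.4, 35.5 and 28.1 under anti-IL-8 and 22.6, 32.8 and 27.1 under anti-VEGFA. All OE-MMP28 and anti-IL-8 libraries were above control, and the anti-VEGFA libraries overlapped with it. The rise with anti-IL-8 was 0.55 on the log2 scale (SE 0.16, adjusted p = 0.0209), and it was lost without control replicate 1 or 2 or anti-IL-8 replicate 1 or 2 (adjusted p up to 0.0811). With the offsets that rise kept its call, at 0.81 (adjusted p = 0.000529). In OE-MMP28 the log2 fold change was 0.57 (adjusted p = 0.054), and it passed the threshold without OE replicate 2 (adjusted p = 0.0419), without anti-VEGFA replicate 1 or 2 (0.0325 and 0.0246) and by DESeq2 (0.0205).

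HILPDA, a hypoxia-inducible droplet protein that also inhibits ATGL, had 4.59, 4.67 and 4.02 CPM in control and 6.43, 7.82 and 6.80 CPM with anti-IL-8, from 62 to 132 counts per library over the 12. The groups did not overlap (log2 fold change 0.65, SE 0.20, adjusted p = 0.029), and the call was lost on leaving out any 1 of the 3 controls or anti-IL-8 replicate 2 or 3 (adjusted p up to 0.11). With the offsets HILPDA kept its call, at 0.61 (adjusted p = 0.0338). PLIN2, the main droplet coat protein of macrophages, was nearly level, with means of 327 ± 29.2 CPM in control, 349.6 ± 3.73 in OE-MMP28, 346 ± 11.3 under anti-IL-8 and 346 ± 17.0 under anti-VEGFA. Its log2 fold change against control was 0.10, 0.08 and 0.08, each with an SE of 0.11. PLIN3 and FABP5 were not called. FABP5 has 13 named pseudogenes, which may take some of its reads.

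Of the 2 triglyceride synthesis enzymes, DGAT1 had 78.6 ± 8.18 CPM in control and rose to 106 ± 8.82 CPM under anti-IL-8 (a log2 fold change of 0.43, SE 0.15, adjusted p = 0.0427). That call was lost on leaving out any 1 of the 3 controls, OE replicate 1, or anti-IL-8 replicate 1 or 3 (adjusted p up to 0.17) and with the offsets (log2 fold change 0.05, adjusted p = 0.73). DGAT1 shares 11.1% of its exon bases with neighbours, HSF1 among them. DGAT2 had 86.0 ± 11.1 CPM in control and 110.5 ± 10.5 CPM with anti-IL-8 (0.36, adjusted p = 0.0857).

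The PPARs, nuclear receptors that respond to fatty acids, were not called in any comparison. PPARG had 51.7, 48.7 and 51.5 CPM in control, 61.2, 75.2 and 73.0 in OE-MMP28, 67.6, 69.4 and 56.1 under anti-IL-8 and 56.4, 77.0 and 55.8 under anti-VEGFA. All 9 libraries with MMP28 overexpression lay above the 3 controls. The log2 fold change against control was 0.46 in OE-MMP28 (adjusted p = 0.0996), 0.35 with anti-IL-8 (0.0906) and 0.32 under anti-VEGFA (0.164). Without anti-VEGFA replicate 2 the OE-MMP28 difference passed the threshold (adjusted p = 0.0358). PPARD had means of 433 ± 18.5, 390.0 ± 40.0, 520.0 ± 8.10 and 482 ± 62.6 CPM in control, OE-MMP28, anti-IL-8 and anti-VEGFA. Its differences from control with the antibodies, at 0.26 and 0.15 on the log2 scale, turned to -0.03 and -0.04 with the offsets.

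Adding an antibody to OE-MMP28 cocultures, the comparison that bears on IL-8 and VEGFA, gave no called gene in this module. For anti-IL-8 against OE-MMP28 edgeR called 0 of 45 genes and 0% of all genes. At an unadjusted p under 0.05 there were 17 (12 higher, 5 lower), against 29.3% of all genes (13.4% higher, 15.9% lower). DESeq2 called 8 and limma's voom 0, against 14.1% and 0% of all genes. The median log2 fold change was 0.11 over the 45 genes and -0.01 over all genes, and 19 genes did not overlap (11 higher, 8 lower), against 29.0% of all genes (13.7% higher, 15.3% lower). Among the 45 genes the smallest adjusted p was 0.0627, shared by PNPLA2 (log2 fold change 0.55), ACADM (-0.47) and ACSL4 (-0.50). It was also the smallest of all genes. The adjustment gives 1 value to genes of different unadjusted p (0.00201 for PNPLA2, 0.00224 for ACADM), so it does not rank these genes first. Genes outside the 45, of droplet and triglyceride metabolism among them, had the same value. Of the 45 genes, PPARD followed (0.41, adjusted p = 0.0677), with 407, 344 and 418 CPM in OE-MMP28 and 511, 523 and 526 CPM with anti-IL-8, without overlap. The count rested on single libraries: without OE replicate 3, 15 of the 45 genes were called (11 higher, 4 lower), PNPLA2 among them at 0.78 (adjusted p = 0.00466), and without anti-VEGFA replicate 2, 4 were. Of all genes, 25.4% and 7.08% were called in those fits, so the module's count moved together with that of all genes.

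For anti-VEGFA against OE-MMP28, edgeR called 0 of 45 genes, against 0.343% of all genes. At an unadjusted p under 0.05 there were 11 (6 higher, 5 lower), against 18.8% of all genes (10.4% higher, 8.44% lower). DESeq2 called 1, LPL, and limma's voom 0, against 2.67% and 0.436% of all genes. The median was -0.02 over the 45 genes and -0.00 over all genes, and 7 genes did not overlap (2 higher, 5 lower), against 18.1% of all genes (9.11% higher, 8.97% lower). ACACB was highest, at 1.26, 1.17 and 1.12 CPM in OE-MMP28 and 2.67, 2.03 and 1.86 CPM with anti-VEGFA (log2 fold change 0.82, SE 0.26, adjusted p = 0.124). Without OE replicate 3, 5 genes were called, among them PNPLA2, DGAT1, ACADM and LPL, against 9.06% of all genes. Both antibody comparisons share the OE-MMP28 libraries.

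Between the antibodies, edgeR called 0 of 45 genes, against 0.199% of all genes. DESeq2 and limma's voom also called 0 of them, against 1.57% and 0.193% of all genes. At an unadjusted p under 0.05 there were 7 (1 higher, 6 lower with anti-VEGFA), against 15.0% of all genes (9.39% higher, 5.62% lower). The 6 that were lower were SLC25A20, HADHA, HADH, ECHS1, ECI1 and HILPDA, of which 5 serve mitochondrial fatty acid entry or oxidation. SLC25A20 had the smallest adjusted p (log2 fold change -0.45, SE 0.13, adjusted p = 0.133), with 20.2, 17.0 and 16.6 CPM with anti-VEGFA, all below the anti-IL-8 libraries. In beta-oxidation 9 of 11 genes had a negative fold change and the median was -0.28 on the log2 scale, against -0.15 over the 45 genes and 0.02 over all genes. This sign was not particular to beta-oxidation, since 32 of the 45 genes had it. All genes of the carnitine shuttle, lipid binding and droplet coat, PPARs and triglyceride synthesis were negative. In fatty acid synthesis and in acyl-CoA activation 3 of 4 genes were positive. Without anti-VEGFA replicate 2, which had the highest mitochondrial share, the median was -0.26 in beta-oxidation and -0.07 over the 45 genes. The groups did not overlap for 10 of the 45 genes (2 higher, 8 lower), against 20.9% of all genes (11.3% higher, 9.64% lower).

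The GC content of the transcripts moved with these differences. Across the 45 genes, which share their libraries, Spearman's rho between log2 fold change and GC content was 0.80 for anti-IL-8 against OE-MMP28 and 0.80 for anti-VEGFA against OE-MMP28, beside 0.71 and 0.56 across all 16046 genes. For OE-MMP28 against control it was -0.04 and -0.09. For anti-IL-8 and anti-VEGFA against control it was 0.53 and 0.52 across the 45 genes, beside 0.51 and 0.38 across all genes. Between the antibodies it was -0.154 across the 45 genes and -0.265 across all genes. Among genes of high GC content were PNPLA2 (64.5%), FASN (65.3%), DGAT1 (63.2%), ECI1 (61.4%) and ECHS1 (60.3%), each with all anti-IL-8 libraries above control. The anti-IL-8 libraries of ACADS (64.6%) and LIPE (60.9%) overlapped with control. Among genes of low GC content ACADM (41.0%) and ACSL4 (37.4%) were wholly below control, but FABP4 (37.6%) and HADH (45.1%) wholly above it. With anti-IL-8, 8 of the 23 genes above the median GC content were called higher than control and 1 lower. Of the 22 others, 2 (FABP4 and HADH) were called higher and 3 lower. Over all genes 9.77% were called higher and 10.9% lower. G0S2 (57.0%) and MGLL (58.0%) have similar GC content and were called in opposite directions.

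With offsets that removed the dependence on GC content and gene length in each library, an alternative chosen after the data were seen, 6 genes were called in OE-MMP28 against control, against 5.49% of all genes: G0S2, FADS1, HADH and FABP4 rose, and MGLL and LPL fell. Against control, 10 were then called for anti-IL-8 and 6 for anti-VEGFA, against 13.0% and 10.6% of all genes. G0S2 was at 1.10, 0.76 and 1.00 on the log2 scale, MGLL at -0.67, -0.61 and -0.79, and LPL at -0.48, -0.56 and -0.75, each called, for OE-MMP28, anti-IL-8 and anti-VEGFA against control. ACADM kept its call with both antibodies (-0.46 and -0.43), and PPARG gained one with both (0.50 and 0.46). In the 3 comparisons among groups with MMP28 overexpression, no gene of the module was called with the offsets. Of all genes, 0.0249% were called for anti-IL-8 against OE-MMP28, 0.249% for anti-VEGFA against OE-MMP28 and 1.05% between the antibodies. The correlation of the fold change with GC content across the 45 genes lay between -0.03 and 0.12 in these comparisons.

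**Figure D4:**
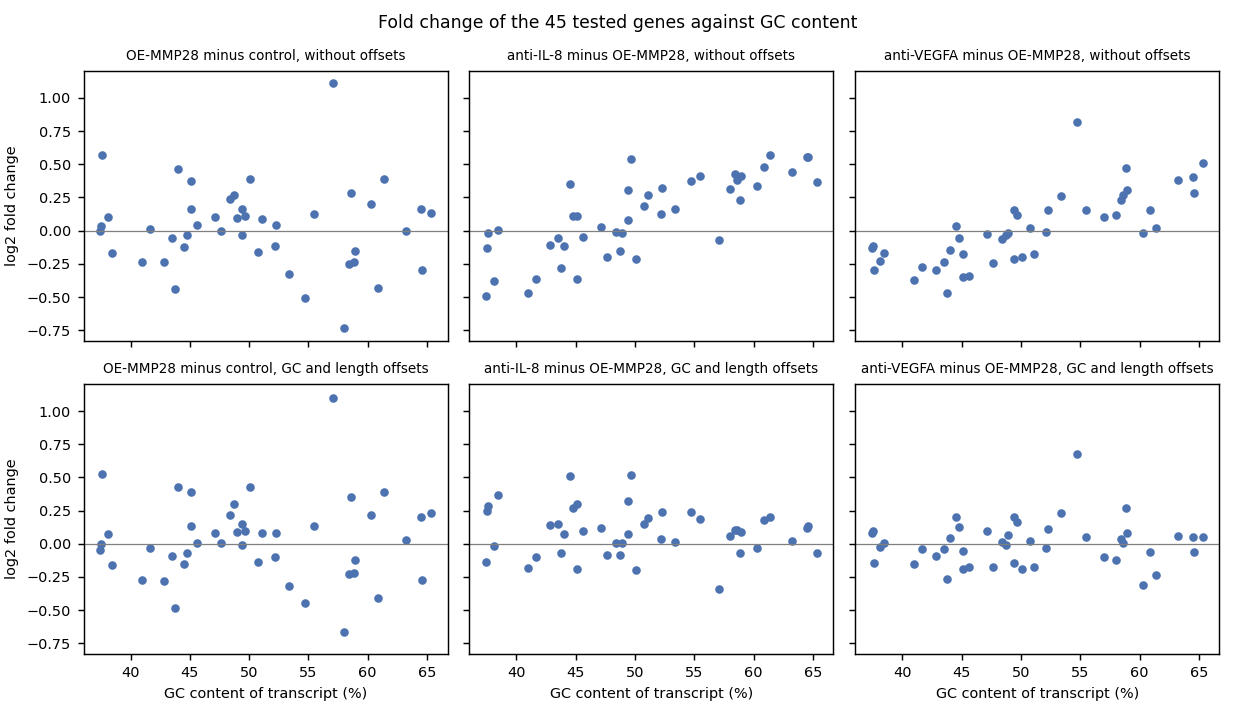
log2 fold change of the 45 tested genes (points) against the GC content of their transcripts in percent, for OE-MMP28 minus control and each antibody minus OE-MMP28, without offsets (top) and with GC and length offsets (bottom). In the top row the points of both antibody comparisons climb with GC content (Spearman's rho 0.80 in each), and in the bottom row they do not.

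Of 90 further genes of fatty acid and lipid metabolism, 73 were tested. In OE-MMP28 against control 3 were called (4.11%), against 3.16% of all genes: VLDLR, a lipoprotein receptor, rose (log2 fold change 0.76, adjusted p = 0.00396), and SLC27A3, an acyl-CoA synthetase of the fatty acid transporter family, and ACOT2, a mitochondrial thioesterase, fell (-0.76, adjusted p = 0.00737, and -0.69, adjusted p = 0.0465). With anti-IL-8 13 were called against control (7 higher, 6 lower, 17.8% in all), against 20.7% of all genes, among them SREBF1, the transcription factor of fatty acid synthesis, at 104 against 59.5 CPM in control (0.80, SE 0.15, adjusted p = 0.00194). With anti-VEGFA 6 were called (5 higher, 1 lower, 8.22% in all), against 11.0% of all genes, with SREBF1 at 95.7 CPM (0.69, SE 0.15, adjusted p = 0.00721). HACD4, a dehydratase of fatty acid elongation, fell with both (-0.70, adjusted p = 0.00581, and -0.63, adjusted p = 0.0153).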

How the data were processed

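RNA was sequenced from THP-1-derived TAMs in 12 libraries of 4 groups, assigned from the labels alone. The authors aligned the reads with HISAT2 2.0.5 and counted them per gene with featureCounts 1.5.0-p3, according to the submitters' processing notes. The genome build and strand setting are not given in the sources used here. The deposited table holds the authors' raw counts for 58735 genes, of which 58631 have the same position as in GENCODE 29 (GRCh38), and all 46 genes described do. It also holds the authors' FPKM values, on a linear scale. A further 30 deposited columns hold the authors' own comparisons (group means as normalized signal, log2 fold changes, and p-values before and after adjustment) and were not used.

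Counts were analysed in R 4.3.3 with edgeR 4.0.16. The filterByExpr function (minimum count 10) kept 16046 genes, and TMM factors scaled the libraries. The quasi-likelihood fit of all 12 libraries, with 1 coefficient per group, gave 6 comparisons. The common dispersion was 0.0231. The p-values were adjusted by Benjamini-Hochberg over all genes tested, and a gene was called at an adjusted p under 0.05. Fold changes use edgeR's prior count of 2. Replicates of a group differed by more than counting noise, so each was used as its own library. The study's methods name limma with a p threshold of 0.05 and do not say whether p was adjusted, and an unadjusted threshold and voom (limma 3.58.1) were both run as alternatives, with DESeq2 1.42.0, other scalings and filters, the replicate number as a block, fits of 2 groups, FPKM on a log2 scale with pseudocounts of 1 and 0.1, and each library left out. GC and length offsets per library (splines with 5 degrees of freedom), the mitochondrial share as a covariate, and leaving out OE replicate 3 with anti-VEGFA replicate 2 were chosen after seeing the data.

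The genes, branches and marker lists were chosen with earlier results of these data known. Full statistics were given for genes called in any comparison and for the most abundant and the most changed gene of each branch. Promoter sequences are from RefSeq (GRCh38.p14), where 36 of the 46 genes had an entry. The scripts were tested on simulated data. Figures were drawn with Python 3.11.15, pandas 2.3.3 and matplotlib 3.10.9.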

Additional observations from a re-analysis of the deposited data

How the results depend on the processing

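None of the 23 called differences of single genes changed sign under any alternative run. Differences that were not called did: with GC and length offsets, 53 of the 270 values (45 genes in 6 comparisons) changed sign, among them MGLL in anti-VEGFA against OE-MMP28 (0.12 to -0.12), FASN in anti-IL-8 against OE-MMP28 (0.37 to -0.07) and ECHS1 in anti-VEGFA against control (0.18 to -0.09). The number of called genes moved more, and the share of all genes called in the same fit is given in brackets. In OE-MMP28 against control it was 2 (3.16%), and 4 with DESeq2 (4.14%) and 7 at the unadjusted threshold (14.5%). It was 6 with GC and length offsets (5.49%), and 6 with the replicate block and those offsets together (5.44%). Leaving out each library gave 2 to 4 (1.79% to 3.89%). For anti-IL-8 against OE-MMP28 it was 0 (0%), and 8 with DESeq2 (14.1%), 4 with no filter (4.18%) and 4 with the replicate block (4.95%). It was 17 at the unadjusted threshold (29.3%) and 7 with the mitochondrial share as a covariate (10.8%). It was 19 without OE replicate 3 and anti-VEGFA replicate 2 together (31.6%). Leaving out each library gave 0 to 15 (0% to 25.4%). Over all genes the same comparison gave 0 calls in the main analysis, 2259 with DESeq2 and 1438 with no filter. For anti-VEGFA against OE-MMP28 it was 0 (0.343%), and 1 with DESeq2 (2.67%), 11 at the unadjusted threshold (18.8%) and 7 without both libraries (8.02%). Leaving out each gave 0 to 5 (0.0486% to 9.06%). For anti-IL-8 against control it was 14 (20.7%), and 24 in the fit of the 2 groups alone (39.8%) and 22 at the unadjusted threshold (35.9%). Leaving out each gave 5 to 18 (7.94% to 26.2%). For anti-VEGFA against control it was 7 (11.0%), and 12 at the unadjusted threshold (27.0%), with 4 to 9 on leaving out each (4.02% to 15.7%). Between the antibodies it was 0 (0.199%), and 7 at the unadjusted threshold (15.0%) and 2 without both libraries (4.72%). Leaving out each gave 0 to 0 (0.0181% to 0.68%). The cause of these changes was not tested.

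The replicate numbers of the labels gave no clear pairing of the libraries in their deviations over all genes. Of 18 pairs with the same number, 5 had deviations correlated above 0.1 (range -0.186 to 0.312), against 11 of 36 pairs with other numbers, and 4 of 12 libraries correlated best with their own number. With the replicate block the calls against control were 2 for OE-MMP28, 16 for anti-IL-8 and 8 for anti-VEGFA, against 3.2%, 21.5% and 10.9% of all genes. They were 0 in anti-VEGFA against OE-MMP28 and between the antibodies, against 0.231% and 0.162% of all genes. In anti-IL-8 against OE-MMP28 they went from 0 to 4, and the share of all genes from 0% to 4.95%. Depth limits LIPE and ELOVL6, at 3 to 14 and 0 to 4 counts per library, for which no difference could be detected.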
